A study of Mus musculus with 9 samples.

Results

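The imprinted growth genes are genes that an embryo transcribes mainly from 1 parental copy and that promote or restrain fetal growth. They were described here in the mid-foregut of the mouse embryo, the part of the gut tube between pharynx and liver, where the lung buds form. Of 10 genes listed, 9 had at least 1 probe set that the platform annotation names with that gene alone: Igf2, Igf2r, Cdkn1c, Peg3, Mest, Dlk1, Meg3, Grb10 and Plagl1. They came to 20 probe sets, of 20380 with a single symbol on the array and 9 of 12393 genes. For H19 the annotation gave 0 such probe sets, because its probe set is also annotated to the microRNA it hosts, and H19 was not analysed here. All embryos were wild type, and the 3 groups were foreguts at 16-20 somites (embryonic day 8.5), 21-25 somites (9.0) and 26-30 somites (9.5). A group held 3 pools that the labels call biological replicates, each of 5 to 10 foreguts whose RNA (100 ng) was amplified in 2 rounds and put on its own Affymetrix array, so the spread between replicates is that between pools with their arrays. The tissue was dissected and not sorted, so fewer cells of a type and less RNA per cell cannot be told apart, and an array reads both parental copies together, so allelic expression was not measured.

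In genomic imprinting, control regions carry DNA methylation on 1 parental allele, set in the germ line, and genes nearby are transcribed mainly from 1 allele, which can be the methylated or the unmethylated one depending on the gene. In the mouse, paternally expressed genes such as Igf2 tend to promote fetal growth, and maternally expressed genes such as Igf2r, Cdkn1c and Grb10 tend to restrain it. IGF2 is a secreted growth factor that signals through the IGF1 and insulin receptors, IGF2R binds IGF2 and carries it to lysosomes, and GRB10 is an adaptor that dampens insulin and IGF signalling. Several of these genes are known to be highly expressed in fetal mesoderm and endoderm and to be turned down after birth.

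By position in the RefSeq annotation of GRCm38.p6, 2 members with probe sets lie in the same stretch of chromosome 12. Dlk1, paternally expressed, spans chr12:109452485-109463336, and Meg3, a maternally expressed long noncoding RNA gene, spans chr12:109540996-109571729, 77.7 kb further on. Igf2 (chr7:142650768-142666816), Cdkn1c (chr7:143458339-143461059) and Peg3 (chr7:6703892-6730462) lie on chromosome 7, with 791.5 kb between Igf2 and Cdkn1c. The others are Mest on chromosome 6, Plagl1 on chromosome 10, Grb10 on chromosome 11 and Igf2r on chromosome 17. The 250 bases before a RefSeq transcript start are shown for Dlk1 and Meg3, whose signals varied together between arrays, and for Peg3, whose window shares a motif with that of Meg3. Sequences are from RefSeq (GRCm38.p6), 5′ to 3′ on the transcribed strand, at chr12:109452573-109452822 (plus), chr12:109540746-109540995 (plus) and chr7:6730420-6730669 (minus), and capitals mark any match to the 4 motifs named in the next paragraph.
Dlk1: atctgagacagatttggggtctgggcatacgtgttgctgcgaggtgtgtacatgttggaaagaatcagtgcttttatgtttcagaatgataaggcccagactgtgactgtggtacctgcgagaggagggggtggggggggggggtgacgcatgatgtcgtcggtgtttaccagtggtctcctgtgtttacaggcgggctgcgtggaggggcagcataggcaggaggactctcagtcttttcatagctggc
Meg3: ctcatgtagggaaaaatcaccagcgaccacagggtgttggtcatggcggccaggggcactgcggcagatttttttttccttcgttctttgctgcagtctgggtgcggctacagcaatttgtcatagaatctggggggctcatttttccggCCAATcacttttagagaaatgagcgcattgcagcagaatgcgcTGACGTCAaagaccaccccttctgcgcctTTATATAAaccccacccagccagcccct
Peg3: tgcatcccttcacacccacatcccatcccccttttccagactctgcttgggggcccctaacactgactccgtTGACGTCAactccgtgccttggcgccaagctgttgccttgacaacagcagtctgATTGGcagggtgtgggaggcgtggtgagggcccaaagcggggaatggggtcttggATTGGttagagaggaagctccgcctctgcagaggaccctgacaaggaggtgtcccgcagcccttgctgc

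The motifs searched on both strands were the cAMP response element TGACGTCA, the GC box GGGCGG, the TATA box TATAA and the CCAAT box CCAAT. In the Meg3 window the cAMP response element begins 57 bases before the start and the matches to the TATA box on the 2 strands, which overlap, begin 28 and 25 bases before it. The same element begins 178 bases before the start of Peg3, and the Dlk1 window held 0 matches to any of the 4 motifs. The Dlk1 window precedes a transcript start at 109452823 and lies inside the annotated span of the gene. Bases before the start of that span were not searched. RefSeq gave 15 windows for 8 of the 9 genes (not for Cdkn1c). Of these, 2 held the cAMP response element, against 1.55% of all 32851 mouse windows of that length, and 8 held the GC box, against 32.7%. The TATA box was in 3, against 22.8%, and the CCAAT box in 3, against 33.8%, and windows of alternative starts of 1 gene can overlap. The Dlk1, Meg3 and Peg3 windows held 8, 10 and 8 CG dinucleotides, against a median of 6 over all windows, and the first window of Grb10 held 40. A match describes these letters and is not a measured binding site.

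Signals are MAS5 intensities on a linear scale. Some arrays stood apart from others of their stage, which touches the results that follow. The highest signal was 27479.8 to 32584 on 3 arrays with a narrow range (21-25 somites replicate 1 and 26-30 somites replicates 1 and 2), and 43792 to 61749 on the other 6. The beta-actin control ratio, 3′ probe set over 5′ probe set, which rises as RNA or its copies shorten, was highest in 21-25 somites replicate 2, at 45.3, and 20.9 to 36.8 elsewhere. Its counterpart for Gapdh reached 40.9 in 26-30 somites replicate 3 and 36.4 in 21-25 somites replicate 2, and lay between 16 and 26 on the rest. In 16-20 somites replicate 2, markers of liver and yolk sac and of heart muscle were high, with a summed signal of 46250.5 for 15 hepatic and yolk sac genes, against 2040 to 10074 on the other 8 arrays. The foregut endoderm factor Foxa2 had a signal between 460 and 883 on every array, and the lung and thyroid factor Nkx2-1 was dim throughout, at 7.2 to 98.6.

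Of the 20 member probe sets, 18 had a mean signal above the filter and were among 15838 probe sets tested. The other 2, of Meg3 (1436713_s_at) and Plagl1 (1450533_a_at), were at 2.5 to 33.1 and 5 to 15 on the 9 arrays. By limma with Benjamini-Hochberg adjustment, 0 of 18 passed at an adjusted p of 0.05 in any comparison, where the share of all tested probe sets that passed was 0.0% for each pair of stages and 0.0% for any difference between the 3 stages. The members' count thus equals the background, and it does not show that their levels were alike between stages. The smallest adjusted p of a member was 0.543 for 26-30 against 16-20 somites, 0.456 for 21-25 against 16-20 and 0.999 for 26-30 against 21-25. At an unadjusted p under 0.05, the member counts were 0, 1 and 0 of 18 for these comparisons, against 10.3%, 10.0% and 3.65% of all tested probe sets, and 0 of 18 for any difference between the stages, against 8.61%. The arrays of both stages did not overlap for 0, 0 and 1 of 18, against 20.3%, 13.5% and 8.97% of all. The single one was the dim Meg3 probe set 1436057_at.

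Log2 differences are later minus earlier stage, on log2(signal + 26.2), a scale that understates changes of dim genes. For 26-30 against 16-20 somites they ran from -0.79 to 0.42 over the 18 member probe sets, with 4 positive and a median of -0.16, where the median of all tested probe sets was 0.01 and 51.1% were positive. For 21-25 against 16-20 they ran from -0.86 to 0.64, with 13 positive and a median of 0.06, beside a median of 0.00 over all. For 26-30 against 21-25 they ran from -1.0 to 0.37, with 5 positive and a median of -0.20, beside 0.01 over all. Several probe sets report the same gene, so these counts are not counts of genes.

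**Figure D1:**
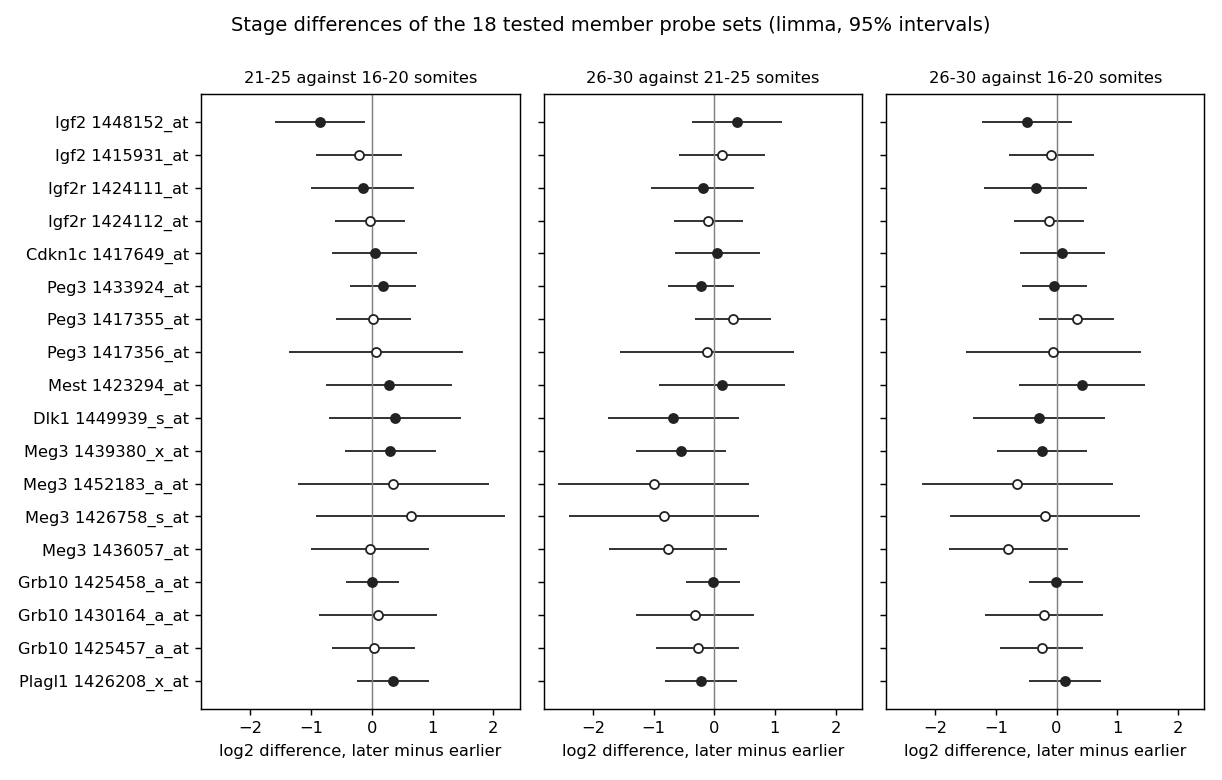
Log2 difference of later minus earlier stage (horizontal axis) with its 95% interval from limma for the 18 tested probe sets, 1 panel per pair of stages; filled points are the brightest probe set of a gene and open points its others. The interval of 1 of them, Igf2 1448152_at at 21-25 against 16-20 somites (-1.60 to -0.12), lies wholly to 1 side of 0, and its adjusted p was 0.456.

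The growth factor gene Igf2 had the widest difference of any member's brightest probe set. Its signal (1448152_at) was 3929, 8794 and 5765 at 16-20 somites, 3369, 2034 and 4815 at 21-25, and 4086, 3959.7 and 4442 at 26-30. The highest value was in the earliest stage and the lowest in the middle one, the 3 arrays at 26-30 somites lay close together, and the groups overlapped. Means were 6163 ± 2456 at 16-20, 3406 ± 1391 at 21-25 and 4163 ± 250 at 26-30 somites (SD, n = 3 pools each). The log2 difference of 21-25 against 16-20 was -0.86 ± 0.34 (SE), with an adjusted p of 0.456 in limma, and that of 26-30 against 16-20 was -0.49 ± 0.34 (0.619). The array with the highest value, 16-20 somites replicate 2, was the one with high hepatic and cardiac markers, and the array with the lowest, 21-25 somites replicate 2, was the one with the highest actin ratio and the second highest Gapdh ratio. The array with the highest Gapdh ratio, 26-30 somites replicate 3, had the highest Igf2 signal of its stage, and the part of these in the result was not tested. Without 16-20 somites replicate 2 the difference of 21-25 against 16-20 was -0.57, and without 21-25 somites replicate 2 it was -0.53. That of 26-30 against 16-20 was -0.19 without 16-20 somites replicate 2 and -0.77 without 16-20 somites replicate 1. The second probe set, 1415931_at, was dim, between 47.1 and 130.8, and gave -0.21 ± 0.32 for 21-25 against 16-20.

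Igf2r, the receptor that removes IGF2, had signals (1424111_at) of 344, 881 and 651 at 16-20 somites, 768, 276 and 662 at 21-25, and 413, 524 and 435 at 26-30. Values at 26-30 somites lay inside the range of both earlier stages. Its log2 difference of 26-30 against 16-20 was -0.34 ± 0.39 (adjusted p of 0.773 in limma). The second probe set (1424112_at) lay between 230.0 and 445 and gave -0.13 ± 0.26, and both SEs were larger than the differences. For 1424111_at the difference was -0.058 without 16-20 somites replicate 2 and -0.70 without 16-20 somites replicate 1.

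Grb10, the adaptor that dampens insulin and IGF receptors, had the smallest SD within stages of the 9 brightest probe sets on the scaling used here. Its brightest probe set (1425458_a_at) read 12777, 11911 and 13296 at 16-20 somites, 11175, 12667 and 14540 at 21-25, and 11729, 11395 and 14702 at 26-30. The highest array was 1.32 times the lowest, and 94.9% of tested probe sets had a larger SD within stages than its 0.17 on the log2 scale. The difference of 26-30 against 16-20 somites was -0.01 ± 0.20, with a 95% interval of -0.46 to 0.43. The other probe sets (1430164_a_at and 1425457_a_at) were dim, with means of 98.7 and 95.2, and less steady, the first spanning 6.27 times with 8.64% of probe sets more variable. They gave -0.21 ± 0.44 and -0.24 ± 0.31. The sign of the bright one turned under quantile normalization, to 0.24, and without the 3 narrow-range arrays, to 0.22. Under quantile normalization its SE, 0.155, was larger than that of Peg3, 0.152.

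Cdkn1c encodes p57, an inhibitor of cyclin-dependent kinases that holds cells out of division. It had 415, 812 and 807 at 16-20 somites, 661, 489 and 939 at 21-25, and 714, 541 and 872 at 26-30. The lowest array was at 16-20 somites and the highest at 21-25, and all stages overlapped. Stage means were 678 ± 228, 696 ± 227 and 709 ± 165 (SD, n = 3 each). The difference of 26-30 against 16-20 was 0.10 ± 0.32 in limma, and it was -0.21 without 16-20 somites replicate 1 and -0.03 with weighted arrays. The zinc finger factor gene Plagl1, known in the mouse to act on other imprinted genes, had 4976, 8738 and 6144 at 16-20 somites (1426208_x_at), 10793, 6285 and 8241 at 21-25, and 8342, 6346 and 6675 at 26-30. The highest array was at 21-25 somites, and the difference of 21-25 against 16-20 was 0.35 ± 0.27, against 0.13 ± 0.27 for 26-30 against 16-20. The first was 0.17 without 16-20 somites replicate 1 and 0.16 without 21-25 somites replicate 1. Its second probe set was the dim one left out by the filter, and the suffix x marks probes that may also match other transcripts, so its level rests on 1 probe set that may not be specific.

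**Figure D2:**
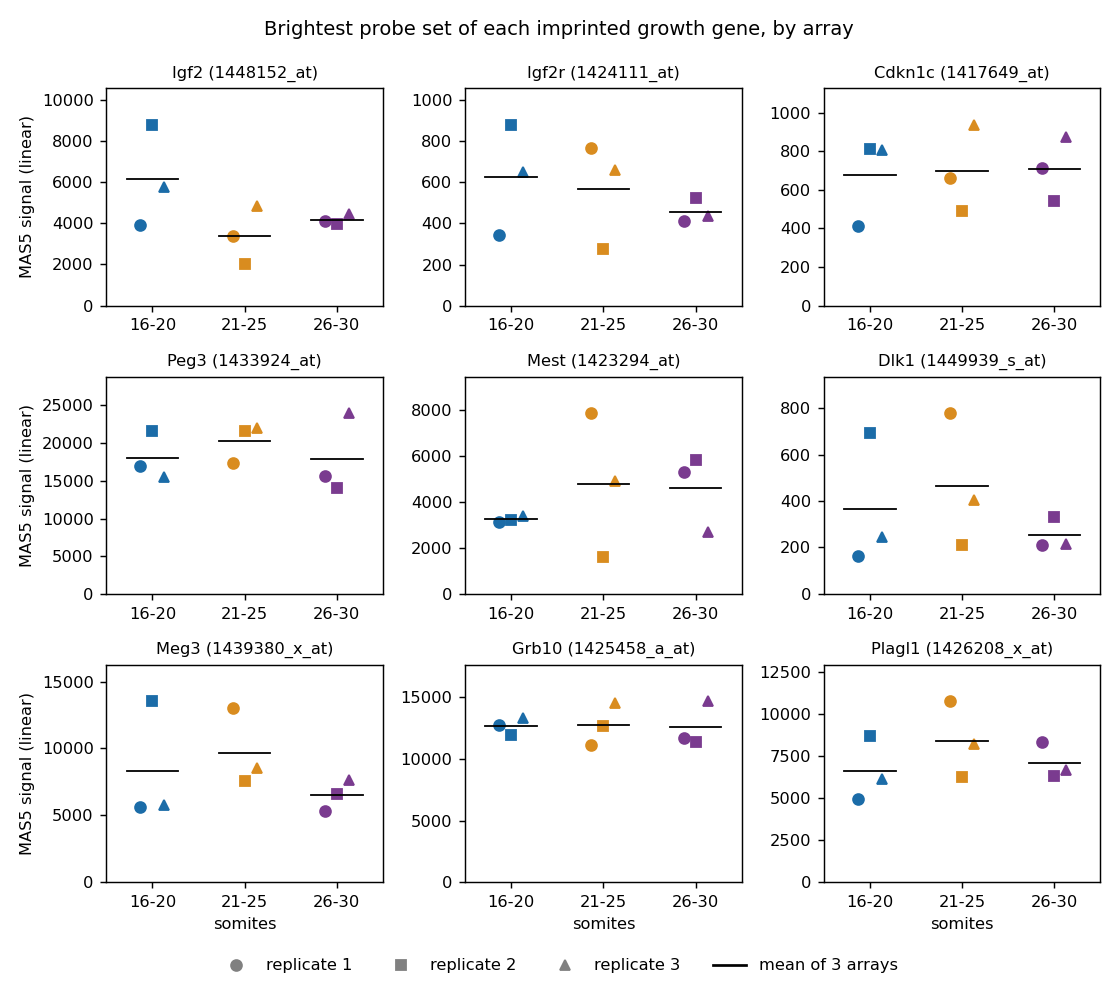
MAS5 signal on a linear axis from 0 (vertical) of the brightest probe set of each of the 9 genes at 16-20, 21-25 and 26-30 somites; symbols are the 3 replicates and the bar is their mean. All stages overlap in every panel, Grb10 spans 11175 to 14702, and Dlk1 spans 163 to 779.9.

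Dlk1 and Meg3, which share a control region on chromosome 12, varied widely between pools of the same stage and varied together. Dlk1 encodes a membrane protein related to Notch ligands that holds progenitors undifferentiated. Its signal was 163, 693 and 245 at 16-20 somites, 779.9, 211 and 406 at 21-25, and 211, 329 and 216 at 26-30. It was high in 16-20 somites replicate 2 and 21-25 somites replicate 1, and low in 16-20 somites replicate 1. Its SD within stages was 0.79 on the log2 scale, and 3.76% of tested probe sets had a larger one. Meg3 (1452183_a_at) had 751, 4479.9 and 1378 at 16-20 somites, 5312, 632 and 2887 at 21-25, and 791, 1502 and 999 at 26-30. The same arrays were high and low as for Dlk1, apart from 21-25 somites replicate 2, where Meg3 was lowest. The highest array was 8.41 times the lowest, and 0.391% of tested probe sets had a larger SD within stages than its 1.2.

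Over the 9 arrays the Pearson correlation of Dlk1 with this Meg3 probe set was 0.97 on the log2 scale (Spearman 0.98), which gave it rank 3 of 15837 tested probe sets in likeness to Dlk1. The arrays share their amplification and scaling, and the pair was singled out after its values were seen, so this is a description of 9 arrays. The other tested Meg3 probe sets gave 0.94 (1426758_s_at), 0.91 (1439380_x_at) and 0.84 (1436057_at), and 3 of 4 were above 0.9, a level that 0.221% of tested probe sets reached with Dlk1. With each stage's mean taken out the first was again 0.97. Without the 2 arrays farthest from the median of Dlk1 it was 0.91 over 7 arrays, and the others were 0.94, 0.57 and 0.71, so that of 1439380_x_at rests largely on those arrays. Without the 3 narrow-range arrays the 4 ran from 0.90 to 0.96. Some members on other chromosomes were also close to this pair. Igf2r (1424111_at), on chromosome 17, gave 0.925 with Meg3 1452183_a_at and 0.85 with Dlk1. Plagl1 (1426208_x_at), on chromosome 10, gave 0.76 and 0.82. The brightest probe sets of the remaining members ran from -0.40 (Grb10) to 0.52 (Mest) with Dlk1.

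The Meg3 probe sets differed in how far they ranged. The brightest, 1439380_x_at, had 5650.0, 13538 and 5797 at 16-20 somites, 12991, 7551 and 8510.3 at 21-25, and 5328, 6600.3 and 7619 at 26-30, a span of 2.54 times. Like that of Plagl1 it carries the suffix x and may not be specific, and the part of this in its span was not tested. The span was 10.2 times in 1426758_s_at and 7.71 times in 1436057_at. Stage differences were small beside this. For 26-30 against 21-25 somites they were -0.55 ± 0.34, -1.0 ± 0.72, -0.83 ± 0.71 and -0.76 ± 0.45 for 1439380_x_at, 1452183_a_at, 1426758_s_at and 1436057_at, and -0.67 ± 0.50 for Dlk1, each with an adjusted p of 0.999 in limma. Dlk1 had -0.23 without 21-25 somites replicate 1 and -1.11 without 21-25 somites replicate 2. The brightest Meg3 probe set had -0.31 without 21-25 somites replicate 1, and -0.073 when all 3 narrow-range arrays were left out. For 26-30 against 16-20, Dlk1 had -0.29 ± 0.50 and was 0.27 without 16-20 somites replicate 2, and the brightest Meg3 probe set had -0.24 ± 0.34 and was 0.17 without it.

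**Figure D3:**
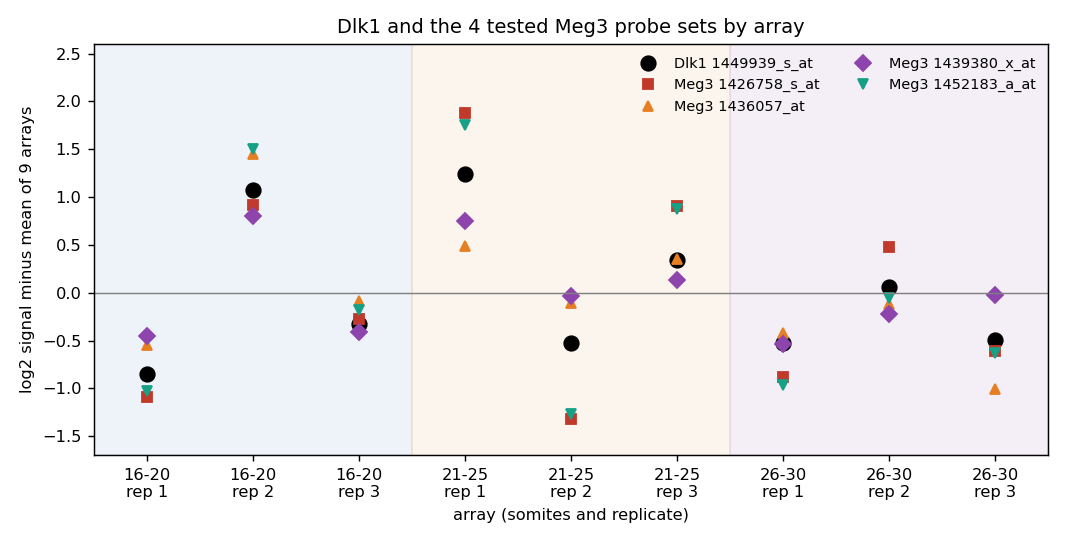
Log2 signal minus its mean over 9 arrays (vertical) for Dlk1 (black circles) and the 4 tested Meg3 probe sets, by array (horizontal), shaded by stage. Dlk1 was at 1.08 in 16-20 somites replicate 2 and 1.24 in 21-25 somites replicate 1 and at -0.85 in 16-20 somites replicate 1, and the Meg3 points lie on the same side of 0 on those arrays.

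The 2 arrays with high Dlk1 and Meg3 also differed in markers of other tissues. Summed hepatic and yolk sac signal was 46250.5 in 16-20 somites replicate 2 and 10074 in 21-25 somites replicate 1, against 2838 and 5414 on the other arrays at 16-20, 2271 and 4570 at 21-25, and 2040 to 3842.5 at 26-30. It was above the other arrays on those 2. For 26-30 against 16-20 somites, 0 of 14 tested hepatic and yolk sac genes had a positive difference (median -1.27) and 3 of 16 cardiac genes did (median -0.54). In limma 0 passed (3 and 2 at an unadjusted p under 0.05). Of all tested probe sets, 51.1% were positive, 0.0% passed and 10.3% had such a p. The hepatic median log2 deviation was 2.97 in 16-20 somites replicate 2, -0.63 and 0.16 on the other 16-20 arrays, and -0.78 to -0.41 at 26-30. The cardiac one was 1.38, then -0.42 and -0.065, and -0.72 to 0.12. The array 16-20 somites replicate 2 thus weighs heavily in both differences. The sum over 15 mesenchymal genes was 26642 in 21-25 somites replicate 1 and 16025 in 16-20 somites replicate 2, against 13779 to 19497 on the others. The sum over 18 cardiac genes was 20721 and 6490 on the 2 arrays, against 3192 to 8535 on the others, so the cardiac value of 21-25 somites replicate 1 lay inside the range of the others. In that array the sums of endothelial (4546), neural and neural crest (3988) and somite and skeletal muscle markers (1755) were the highest of the 9, against 2780.5 to 3616, 2038.5 to 3293 and 861 to 1180.1 on the others, and that of erythroid markers was the lowest, at 22162 against 25295 to 65032. In 16-20 somites replicate 2 the trophoblast sum (2399) and the epithelial and endoderm sum (19378.5) were the highest, against 818 to 1237 and 10487 to 12419 on the others. The gene Plac8 alone gave 1509 of the trophoblast sum there, against 380 to 584 on the others. Of 8 trophoblast genes with a probe set, 4 passed the filter. Both Afp, the fetal liver and yolk sac protein, with 7949.8 and 5974.5 against 494 to 2076 elsewhere, and Ttr, with 21559 and 1646 against 352 to 2185, were well above the lowest signal of the table, 0.1, on every array. The trophoblast marker Tpbpa did not pass the filter, at 19.4 to 41.1. The part of these tissues in the Dlk1 and Meg3 signals was not tested.

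Mest, a paternally expressed gene for an endoplasmic reticulum protein of the hydrolase fold that is abundant in mesoderm, had 3149.7, 3213 and 3410.0 at 16-20 somites, 7884, 1626 and 4897 at 21-25, and 5293, 5814 and 2679 at 26-30. The earliest stage was tight and both later stages were spread on either side of it. Means were 3258 ± 136 at 16-20, 4802 ± 3130.0 at 21-25 and 4595 ± 1680 at 26-30 somites (SD, n = 3 each). The 3 highest values were on the narrow-range arrays, and the lowest was on the array with the highest actin ratio, while the lowest at 26-30 somites was on the array with the highest Gapdh ratio, whose part in the result was not tested. The difference of 26-30 against 16-20 was 0.42 ± 0.48 (adjusted p of 0.775 in limma) and -0.28 when the narrow-range arrays were left out, with a lone array at 26-30 somites taken to vary as much as the rest; it was 0.21 without 26-30 somites replicate 2 and 0.76 without 26-30 somites replicate 3.

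Peg3, a paternally expressed zinc finger gene, was bright in its probe set 1433924_at, and 63.1% of tested probe sets had a larger SD within stages. It had 16927, 21672 and 15460 at 16-20 somites, 17424, 21639 and 21972 at 21-25, and 15614, 14000.0 and 24029.9 at 26-30. The widest spread was at 26-30 somites, where the array without a narrow range was highest. Its difference of 26-30 against 16-20 was -0.04 ± 0.25, and 0.43 without the 3 narrow-range arrays and 0.29 under quantile normalization. Of its other probe sets, 1417355_at lay between 266 and 554 and gave 0.33 ± 0.29. In 1417356_at, 21-25 somites replicates 1 and 2 were the highest and the lowest of the 9 arrays, at 626 and 34.4, and the difference was -0.05 ± 0.66.

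**Figure D4:**
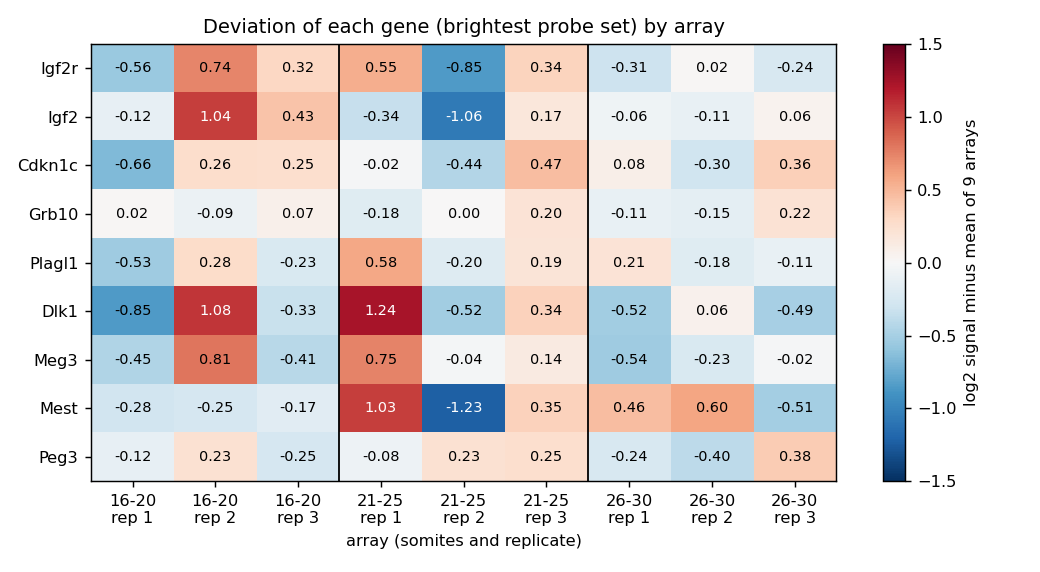
Log2 signal minus its mean over 9 arrays, written in each cell and coloured, for the brightest probe set of each gene (rows) on each array (columns, 3 per stage). In 21-25 somites replicate 1 Dlk1 was at 1.24 and Mest at 1.03, in 21-25 somites replicate 2 Igf2 was at -1.06 and Igf2r at -0.85, and Grb10 stayed between -0.18 and 0.22.

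The members were also compared with each other across arrays, which share their amplification and scaling. Of 36 pairs of brightest probe sets, 1 was above a Pearson correlation of 0.9 over 9 arrays, or 2.78%, against 0.238% of all pairs of tested probe sets. That pair was Dlk1 and Meg3 1439380_x_at (0.91), described above after its values were seen, and it was at 0.57 without the 2 arrays farthest from the median of Dlk1. Pairs with a gene's other probe sets are not in this count. Some of them were also above 0.9, among them Igf2r 1424111_at with Meg3 1452183_a_at (0.925) and Peg3 1417356_at with Mest (0.92). The median over the 36 pairs was 0.38, beside 0.03 over all pairs. The median over the 36 pairs was 0.44 with stage means taken out, which was not computed for all pairs. The median deviation of the 9 genes was 0.55 in 21-25 somites replicate 1 and 0.28 in 16-20 somites replicate 2, and -0.45 in 16-20 somites replicate 1 and -0.44 in 21-25 somites replicate 2. Igf2r was also close to Dlk1, at 0.85, while Peg3 and Mest differed in direction, at -0.53, as did Grb10 and Mest, at -0.46. Under quantile normalization these became 0.39 and 0.76, so the direction of Grb10 and Peg3 relative to Mest depended on the scaling. It also depended on the probe set. Without that normalization the other Peg3 probe sets gave 0.92 (1417356_at) and 0.50 (1417355_at) with Mest. The other Grb10 probe sets gave 0.61 (1430164_a_at) and -0.21 (1425457_a_at) with it.

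Among genes that are no members, those most like a member over the 9 arrays were of varied kinds. Dlk1 was closest to Itga9, an integrin gene, and Marveld1, each with a Pearson correlation of 0.97. The brightest Meg3 probe set was closest to Tmem150a (0.96) and Ndrg1 (0.95), Igf2 to Mrpl54 (0.98), a mitochondrial ribosomal protein gene, and Lrpap1 (0.97), and Igf2r to Irf3 and Cgnl1 (0.96 each). Mest was closest to Lasp1 (0.98), an actin-binding protein gene, and Sertad2 (0.97), and 1.33% of tested probe sets were above 0.9 with it, the highest share of the 9 genes. Cdkn1c was closest to Mrgpra1 (0.92) and Phgdh (0.91), Peg3 to Il1rn (0.92) and F2r (0.90), Grb10 to Nkd2 and Gtf2b (0.95 each), and Plagl1 to Ttn (0.94) and Pkp2 (0.92). Each was chosen as the highest of 15837 probe sets over only 9 arrays and is given as a description.

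Other imprinted genes were examined from a wider list. For 26-30 against 16-20 somites, 51.1% of all tested probe sets were positive, 0.0% passed and 10.3% had an unadjusted p under 0.05 in limma. Of 14 tested genes of the paternal allele, 7 had a positive difference for 26-30 against 16-20 somites, the median was 0.04, beside 0.01 for all tested probe sets, and 0 passed in limma (0 at an unadjusted p under 0.05). The widest were Peg12 (0.45 ± 0.34), Nnat, a small membrane protein gene (-0.35 ± 0.40), Rasgrf1 (-0.33 ± 0.38) and Mkrn3 (0.31 ± 0.45). Of 20 tested genes of the maternal allele, 7 were positive, the median was -0.18 and 0 passed (2 unadjusted). The widest was Phlda2, a restrainer of placental growth, at -1.21 ± 0.76, which had 486 in 16-20 somites replicate 2, against 4.6 to 80.4 on the other 8 arrays and was therefore high on 1 array alone. Ube3a, a ubiquitin ligase gene, had 1.15 ± 0.68 and Cd81, a tetraspanin gene, 0.70 ± 0.37. Rian, a noncoding RNA gene downstream of Meg3, had 341, 439 and 407 at 26-30 somites, against 763, 881 and 453 at 16-20, a difference of -0.74 ± 0.30 (adjusted p of 0.438 in limma). Its 3 later values lay below the 3 earlier ones, and these groups did not overlap for 20.3% of all tested probe sets. Unlike Meg3, its correlation with Dlk1 was 0.65 over 9 arrays and 0.06 without the 2 farthest, a difference that was not tested.

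In the pathway that IGF2 feeds, 31 genes of IGF and insulin signalling were tested, of which 14 were positive for 26-30 against 16-20 somites with a median of -0.04, and 0 passed (3 unadjusted). Over all tested probe sets, 51.1% were positive, 0.0% passed and 10.3% had an unadjusted p under 0.05 in limma. Igf1, the second growth factor of the family, had 390.3, 588 and 185 at 26-30 somites, against 42.9, 199 and 80.5 at 16-20, a difference of 1.68 ± 0.66 (adjusted p of 0.430 in limma). The lowest later array lay under the highest earlier one, so the groups overlapped. The RNA-binding protein genes Igf2bp3 and Igf2bp1, whose products bind Igf2 mRNA, had 0.86 ± 0.39 and -0.53 ± 0.24, and Foxo1, a factor held in check by insulin signalling, had 0.59 ± 0.28. Of 15 tested regulators of imprinting, 10 were positive with a median of 0.13 and 0 passed (2 unadjusted), beside the same shares of all. They were led by Arid4b (1.12 ± 0.30) and the DNA methyltransferase gene Dnmt3a (0.86 ± 0.28, adjusted p of 0.388 in limma). Dnmt3a had 1132, 1256 and 1328 at 26-30 somites, against 859.7, 409 and 845 at 16-20. Its groups were apart, as they were for 20.3% of all tested probe sets. Ehmt2 (-0.54 ± 0.27) and Uhrf1 (0.45 ± 0.34) followed.

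Around CDKN1C, 17 genes of CDK inhibitors and their targets were tested for 26-30 against 16-20 somites. Of these, 12 were positive, beside 51.1% of all tested probe sets, with a median of 0.18. In limma 0 passed, beside 0.0% of all, and 4 had an unadjusted p under 0.05, beside 10.3% of all. The widest were Ccnd2 (1.12 ± 0.23, adjusted p of 0.290 in limma), Rb1 (0.88 ± 0.35), Ccne2 (0.73 ± 0.33) and Ccnd3 (0.73 ± 0.43). Of 12 tested partners of DLK1 in Notch signalling, 8 were positive, with a median of 0.12 and 0 that passed (1 unadjusted), beside the same shares of all. Among them the ligand gene Dll3 had 252, 298 and 201 at 26-30 somites, against 92.1, 101 and 108 at 16-20 (1.12 ± 0.34, adjusted p of 0.387). Notch2 had -0.54 ± 0.28, Notch4 0.47 ± 0.29 and Hey1, a target of the pathway, -0.42 ± 0.24.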

How the data were processed

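Total RNA from 9 mid-foregut pools of mouse embryos, 3 per stage, was measured on Affymetrix arrays. The deposited values are intensities on a linear scale, which the submitters' processing notes credit to MAS5 as run by the authors. Version and scaling target were not given in the sources used here. Of 22690 rows, 64 controls were left out. The platform annotation gave 20380 probe sets 1 gene symbol, 691 several and 1555 none. Probe sets whose mean signal reached the 30th percentile (54) were tested, 15838 in all. Values were log2(signal + 26.2), the 20th percentile of signal, and stages were compared by limma (version 3.58.1, R version 4.3.3; moderated with a mean-variance trend, all 9 arrays in 1 fit, Benjamini-Hochberg adjustment over all tested probe sets at 0.05). The limma step was tested on simulated data with normal noise for 26-30 against 16-20 somites. It recovered 20.8% of log2 changes of 1, 58.2% of 1.5, 77.2% of 2 and 95% of 3. The labels call the replicates biological. Arrays have no read depth, and their number limits the precision. Members and gene lists were chosen with earlier results of these data known. Text names all members, the 2 genes most like each member's brightest probe set by Pearson correlation, and the 4 genes of a list with the largest difference between 26-30 and 16-20 somites. The Dlk1 and Meg3 pair and the marker values were singled out after values were seen. Alternatives were quantile normalization, other pseudocounts and filters, 1 probe set per gene, array weights, a replicate block, the array's 99th percentile as covariate, no trend, and leaving out arrays. H19 is not reported here.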

Additional observations from a re-analysis of the deposited data

How the results depend on the processing

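Over 594 member values under alternatives, 0 passed the threshold and 50 turned sign, in 18 of 27 results, none of which had a size above 0.42 (log2). Over all probe sets the count that passed was 630 for 26-30 against 16-20 somites, 2 for 26-30 against 21-25 and 48 for any difference with array weights, and 1 for 26-30 against 16-20 and 1 for any difference with the 99th percentile as covariate, against 0 in each; the cause was not tested. Leaving out 1 array gave 0 to 1 for 26-30 against 16-20 (1 without 26-30 replicate 3), 0 to 3 for 21-25 against 16-20 (3 without 21-25 replicate 3) and 0 to 1 for any difference. Replicate numbers were not taken as pairs. Deviations of same-numbered arrays correlated at -0.25 to 0.23, but differently numbered arrays were not set beside them, so this cannot show whether samples were paired. With the replicate block 0 probe sets passed in each comparison and no call changed. The median correlation among members was 0.46 with quantile normalization and 0.44 with stage means taken out. Neither was computed for all pairs of tested probe sets. For 26-30 against 16-20, signs turned for Cdkn1c with array weights (-0.032), Peg3 with quantile normalization (0.29), without narrow-range arrays (0.43) and with the covariate (0.20), Mest without narrow-range arrays (-0.28) and with the covariate (-0.14), and Grb10 in those 3 settings (0.24, 0.22 and 0.11). Leaving out 1 array gave -0.21 to 0.27 for Cdkn1c, -0.27 to 0.12 for Peg3, -0.69 to 0.27 for Dlk1, -0.46 to 0.17 for Meg3, -0.13 to 0.054 for Grb10 and -0.051 to 0.35 for Plagl1. For 21-25 against 16-20, Mest was -0.20 without narrow-range arrays and -0.12 with the covariate, and Dlk1 was -0.057 without narrow-range arrays. Leaving out 1 array gave -0.52 to 0.28 for Igf2r, -0.26 to 0.27 for Cdkn1c, -0.20 to 0.93 for Mest, -0.057 to 0.94 for Dlk1 and -0.088 to 0.10 for Grb10. For 26-30 against 21-25, array weights gave -0.014 for Igf2 and -0.28 for Cdkn1c, leaving out narrow-range arrays gave 0.016 for Igf2r, 0.14 for Peg3, -0.076 for Mest and 0.12 for Grb10, the covariate gave -0.013 for Mest and 0.009 for Grb10, and quantile normalization gave 0.051 for Grb10. Leaving out 1 array gave -0.62 to 0.078 for Igf2r, -0.17 to 0.28 for Cdkn1c, -0.51 to 0.62 for Mest and -0.14 to 0.074 for Grb10. Dim probe sets lie near background, where MAS5 signals are least precise. The settings that leave out arrays leave single arrays in some stages, which are assumed to vary like the others. The checks of Dlk1 against Meg3 without the farthest or narrow-range arrays or 16-20 replicate 2 were chosen after seeing the data.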
